A study of Rattus norvegicus with 12 samples.

Results

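Genes of iron handling were followed across every column of the deposited count tables, and they make up 5 of the 56953 genes listed there. They were taken by identifier: Fth1 (ENSMUSG00000024661), Ftl1 (ENSMUSG00000050708), Hmox1 (ENSMUSG00000005413), Tfrc (ENSMUSG00000022797) and Slc40a1 (ENSMUSG00000025993). The choice was made with earlier results of these data known. All 5 were present in both tables. The tissue was muscle of wild-type Long-Evans rats, an outbred laboratory strain, taken from the back or the leg at a site of implantation or surgery. The labels name 12 samples in 4 groups, which are back or leg muscle with either a magnetic fluid injection (MFIT) or no treatment or sham surgery (NT), with 3 biological replicates in each. The series mentions collection at 7 and 14 days, but no sample label gives its day, so muscle and day cannot be told apart.

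The count columns carry other names than the samples. Each of the 2 tables, back and leg, holds 3 columns coded ST and 3 coded WT, and no source used here says which code stands for the injected muscle. Columns were therefore matched to their muscle only, and ST and WT are used below as printed codes. No difference between them is given a treatment direction. The 4 sets are called back WT, back ST, leg WT and leg ST, with 3 columns each, and a column is named by its set and its printed number (back ST1).

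Iron enters most cells bound to transferrin, which the transferrin receptor encoded by Tfrc carries inside. Surplus iron is stored in ferritin, a shell built from heavy chains (Fth1) and light chains (Ftl1), and leaves the cell through ferroportin (Slc40a1), the known cellular iron exporter. Heme oxygenase 1 (Hmox1) breaks down heme and releases its iron, and it is a well known stress-induced gene of macrophages. Iron regulatory proteins stabilise the Tfrc transcript and block translation of ferritin when iron is scarce, so a ferritin transcript level does not report the amount of ferritin protein. Muscle also holds much iron in myoglobin and mitochondria.

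Counts assigned to genes ranged from 3329994 to 7164682 per column. They made up 30.3% to 36.4% of the reads in the table, while 52.4% to 61.2% were unmapped. The gene identifiers are those of mouse although the tissue is labelled rat, so the level of a gene may depend on how well its reads matched, and levels were not compared between genes. A column, back ST1, stood apart from its set. Its log2 levels over all tested genes correlated with the back WT columns at 0.979 to 0.982 and with the other back ST columns at 0.946 to 0.958. Back ST2 correlated with the leg columns at 0.962 to 0.970 and with the back WT columns at 0.938 to 0.943, and its highest value was 0.973 with back ST3. Back ST3 correlated with the leg columns at 0.947 to 0.963 and with the back WT columns at 0.949 to 0.955. Whether every back ST column holds the muscle its name gives was not tested, and the values of that set are those of the columns as named. The back ST minus WT differences of Fth1, Tfrc and Slc40a1 are given with and without back ST1. For Tfrc this was also done for the other differences that use back ST. Back ST1 was singled out for its likeness to back WT, so leaving it out tends by construction to widen ST minus WT differences. Its omission also tends to narrow the spread of the set, so values without it are a description and no independent test. The muscle label could not be checked against muscle marker genes, since the files pair no identifier with a symbol and 0 of their identifiers were found in the rat gene table used here. For the same reason other iron genes and markers of macrophages or red cells were not analysed here.

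Levels are given as CPM, the counts of a gene relative to the library size of its column, scaled by the trimmed mean of M-values (TMM). Differences are log2 values from edgeR's quasi-likelihood test on counts, with Benjamini-Hochberg adjustment over the 10450 genes that passed a filter on low counts. A gene was called at an adjusted p under 0.05. Fth1, Tfrc and Slc40a1 passed the filter, and Ftl1 and Hmox1 did not. Of the 3 tested genes, Tfrc alone was called, in 1 of the 5 comparisons. In bulk tissue, fewer cells of a type and less RNA per cell cannot be told apart.

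**Figure D1:**
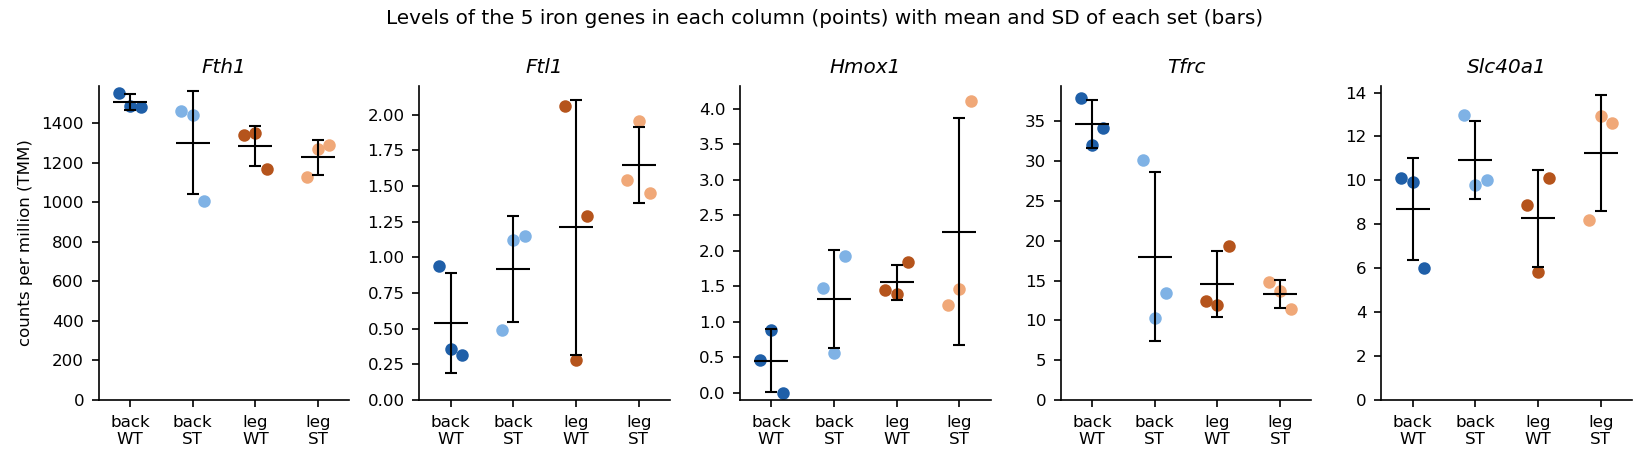
Level of each gene in CPM in the 12 columns (points), with the mean and SD of each set of 3 (black bars) and a separate linear axis for each gene. Tfrc lay between 31.9 and 37.9 CPM in back WT and at or below 30.1 CPM in every other column, and every Hmox1 point of leg muscle lay above the 3 back WT points.

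Of the 3 tested genes, the iron uptake gene Tfrc had the clearest difference in transcript level. Tfrc, the transferrin receptor, stood at 37.9, 31.9 and 34.1 CPM in the 3 back WT columns, a mean of 34.6 ± 3.00 CPM (SD, n = 3). In leg WT it stood at 12.4, 11.96 and 19.3 CPM, a mean of 14.6 ± 4.13 CPM (SD, n = 3). Every back WT column was higher than every leg WT column. Tfrc was lower in leg than in back muscle among the WT columns, by a log2 difference of -1.23 (SE 0.293, 95% interval -1.85 to -0.61, adjusted p = 0.0117 by edgeR), a 2.34-fold lower level. Of all tested genes, 13.9% were called in this comparison, and of the 3 tested iron genes 1 was called. With all reads of genes in place of TMM as the scale, Tfrc gave -0.998 (adjusted p = 0.0151), and the median over all genes shifted to 0.23. A change of scale moves all genes of a column alike, so the place of Tfrc relative to the median gene could hardly change. Leaving out leg WT1 ended the call (log2 difference -1.10, adjusted p = 0.0671).

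In back ST, Tfrc stood at 30.1, 10.3 and 13.5 CPM, a mean of 17.97 ± 10.6 CPM (SD, n = 3). Its level in back ST1 was near the back WT range, and in the other columns of the set it was within or just under the leg range of 11.4 to 19.3 CPM. No back ST column reached the lowest back WT column. The log2 difference of ST minus WT in back muscle was -0.90 (SE 0.283, 95% interval -1.50 to -0.30), which did not pass the threshold (adjusted p = 0.0830). In this comparison 3.78% of all tested genes were called, and 0 of the 3 iron genes. Without back ST1, the back ST column most like back WT, the Tfrc difference was -1.51 (SE 0.205, adjusted p = 2.25e-05 by edgeR). The number of genes called rose from 395 to 2336. A rise of this kind follows in part from the choice of the column left out. Without back ST2 the Tfrc difference was -0.65 (adjusted p = 0.223), and without back ST3 it was -0.71 (adjusted p = 0.277). Whether Tfrc passed the threshold thus depended on back ST1, and it also depended on the method. DESeq2's Wald test on all columns put Tfrc just past the threshold (log2 difference -0.93, adjusted p = 0.0406), and over the 12 alternatives run the adjusted p ranged from 2.25e-05 to 0.277.

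In leg ST, Tfrc stood at 14.8, 13.7 and 11.4 CPM, a mean of 13.3 ± 1.75 CPM (SD, n = 3), which overlapped leg WT. The log2 difference of ST minus WT in leg muscle was -0.14 (95% interval -0.81 to 0.53, adjusted p = 0.884). Only 0.0766% of all tested genes were called in leg muscle, and 0 of the 3 iron genes.

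The ST minus WT difference of Tfrc was 0.76 higher on the log2 scale in leg than in back muscle (SE 0.423, 95% interval -0.14 to 1.66), and this difference between the muscles did not pass the threshold (adjusted p = 0.576). edgeR called 0 of the 10450 genes in that interaction test (0%), with 1074 genes at an unadjusted p under 0.05. DESeq2 called 54 of the 8111 genes to which it gave an adjusted p. Without back ST1 the Tfrc interaction was 1.37 (SE 0.281, adjusted p = 0.00453 by edgeR), with 662 genes called. This too follows in part from the choice of that column. Without back ST2 the Tfrc interaction was 0.51 (adjusted p = 0.76), and without back ST3 it was 0.56 (adjusted p = 0.74).

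Among the ST columns, Tfrc differed by -0.47 between leg and back muscle (95% interval -1.12 to 0.18, adjusted p = 0.394). Of all tested genes 8.23% were called there, and 0 of the 3 iron genes. Without back ST1 the sign turned, to 0.15 (SE 0.222, adjusted p = 0.764). It stayed negative without back ST2 (-0.72) and without back ST3 (-0.67). The order of the set means for Tfrc was back WT, back ST, leg WT and leg ST. The last 3 overlapped each other, and back WT overlapped none.

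**Figure D2:**
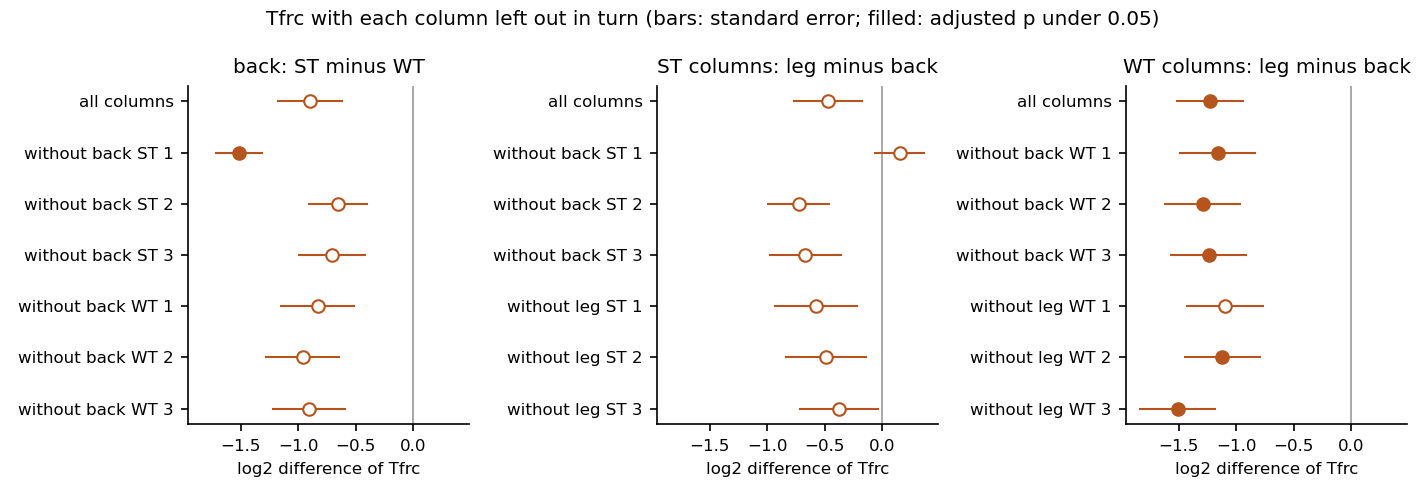
Log2 difference of Tfrc (horizontal axis, bars show the standard error) with all columns and with each column left out in turn, in 3 comparisons. Leaving out back ST1 moved the back ST minus WT value from -0.90 to -1.51 and the leg minus back value of the ST columns from -0.47 to 0.15.

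A class of reads set the columns with the highest Tfrc levels apart from the others. Reads that could not be assigned to a single gene made up 6.52%, 7.20% and 6.74% of reads in back WT and 7.31% in back ST1, against 4.70% and 4.61% in back ST2 and ST3. They made up 5.68% to 6.32% in leg WT and 5.09% to 6.11% in leg ST. The 4 columns with the highest share were the 4 with the highest Tfrc level. Among these 4 the order did not match, since back ST1 had the highest share and the lowest Tfrc level. In leg WT the column with the highest Tfrc level, leg WT3 at 19.3 CPM, had the lowest share, 5.68%. Unmapped reads were lowest in back ST1, at 52.4%, and ranged from 54.6% to 57.7% in back WT and from 56.2% to 57.7% in leg WT, so the WT columns of the 2 muscles overlapped in this measure. Back ST2 and ST3 had 61.0% and 58.8% unmapped. Back ST1 and the back WT columns also had the lowest TMM factors, 0.851 to 0.871 against 1.008 to 1.196 in the other columns. A factor under 1 raises the CPM of a column. Scaled by the total of gene counts, these columns still had the highest Tfrc levels, 25.6 to 32.9 CPM against at most 19.8 CPM. The part of the read classes and of the factors in the Tfrc differences was not tested.

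**Figure D3:**
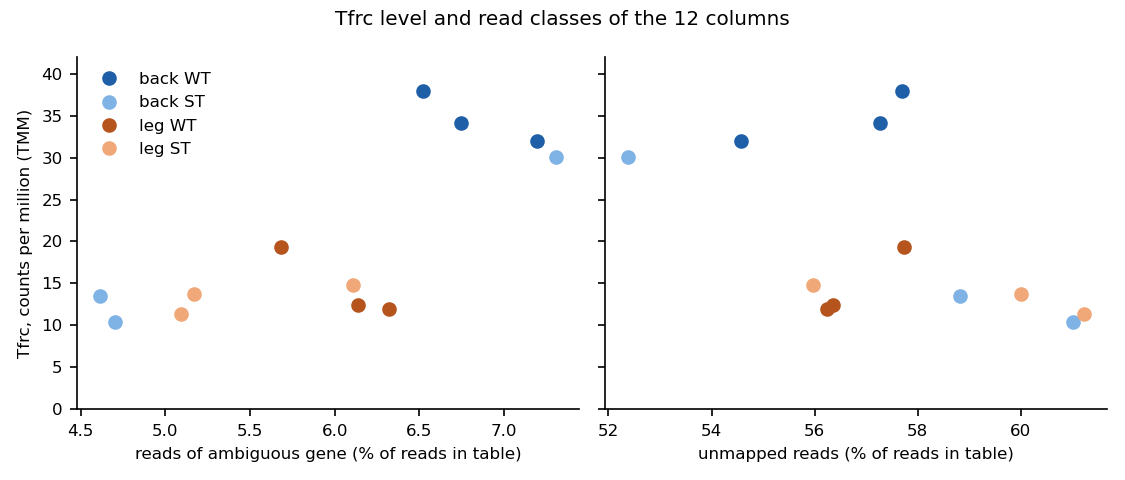
Tfrc level (vertical axis, CPM) in each of the 12 columns against the share of reads that fell on more than 1 gene (left) and the share unmapped (right), coloured by set. The 3 back WT columns and back ST1 lie together at 30.1 CPM or more and at 6.52% or more ambiguous reads.

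The sequence before the Tfrc start site is shown because Tfrc was the gene that differed between muscles and is known as a hypoxia-inducible gene. RefSeq promoter sequences were found for 2 of the 5 genes, Tfrc and Slc40a1. The 250 bases before the rat Tfrc start site lie on the minus strand of GRCr8 at chr11:81690319-81690568, with the match to the core of the hypoxia response element, ACGTG, in capitals.

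Tfrc: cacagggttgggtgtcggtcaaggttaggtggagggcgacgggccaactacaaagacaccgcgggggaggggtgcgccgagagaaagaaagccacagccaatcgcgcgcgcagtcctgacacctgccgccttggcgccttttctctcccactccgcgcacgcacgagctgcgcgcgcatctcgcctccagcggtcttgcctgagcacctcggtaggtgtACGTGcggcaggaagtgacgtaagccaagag

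ACGTG was searched on both strands and matched 1 time before Tfrc, beginning 31 bases before the start site, and 0 times before Slc40a1. It occurs in 16.6% of the 33469 rat promoter windows of this length, so a match is common. A core of the antioxidant response element, TGACNNNGC, was found in 10.1% of the windows and in neither of the 2 promoters. These matches describe the letters and not a bound site. The deposited tables hold no measurement of binding.

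Iron storage was represented by Fth1, the ferritin heavy chain, which had by far the deepest counts of the 5 genes, from 4693 to 8893 per column. Its level was 1553, 1486 and 1483 CPM in back WT, a mean of 1507 ± 39.5 CPM (SD, n = 3). In back ST it was 1462, 1441 and 1005 CPM, a mean of 1303 ± 258 CPM (SD, n = 3). Back ST3 was the lowest of all 12 columns, and the other back ST columns lay just under back WT. In leg WT the level was 1341, 1350 and 1170 CPM, a mean of 1287 ± 101.2 CPM (SD, n = 3). In leg ST it was 1127, 1271 and 1290 CPM, a mean of 1229 ± 89.1 CPM (SD, n = 3). The 2 leg sets overlapped, and all 6 leg columns lay below the 3 back WT columns on the TMM scale. Scaled by the total of gene counts, back WT ran from 1263 to 1349 CPM and the leg columns from 1198 to 1542 CPM. The order of the columns thus depended on the scale.

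No difference of Fth1 passed the threshold in any of the 5 comparisons. The largest in size was leg minus back among the WT columns, at -0.23 on the log2 scale (95% interval -0.53 to 0.07, adjusted p = 0.318), which corresponds to between 0.692-fold and 1.05-fold. Scaled by the total of gene counts it was 0.0036 (adjusted p = 0.990), so its size and sign depended on the scale. ST minus WT was -0.21 in back muscle (95% interval -0.51 to 0.09, adjusted p = 0.411) and -0.07 in leg muscle (95% interval -0.37 to 0.24, adjusted p = 0.875), and these differed by 0.14 (95% interval -0.28 to 0.57, adjusted p = 0.879). Without back ST1 the back muscle difference of ST minus WT was -0.30 (SE 0.126, adjusted p = 0.0950 by edgeR). Leg minus back among the ST columns was -0.08 (95% interval -0.39 to 0.22, adjusted p = 0.793). From its lowest to its highest column Fth1 spanned 1.55-fold, against 3.66-fold for Tfrc and 2.22-fold for Slc40a1. Counts per column were far lower for Tfrc (37 to 183) and Slc40a1 (19 to 79), so counting noise widens their spans more than that of Fth1. Reads of Fth1 could be shared with near-identical copies, and the values are uncertain to that extent. The rat RefSeq table lists 5 Fth1 pseudogenes. The counts carry mouse identifiers, so that number does not show which copies could share reads here.

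**Figure D4:**
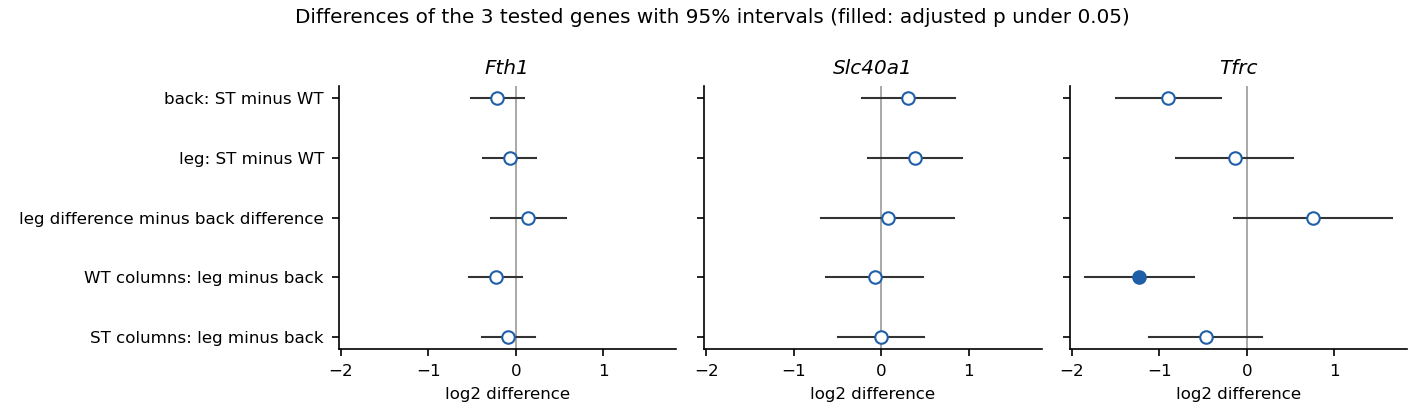
Log2 differences of Fth1, Slc40a1 and Tfrc (points) with their 95% intervals (lines) in the 5 comparisons, from edgeR. The single filled point, at an adjusted p under 0.05, is Tfrc in leg minus back muscle of the WT columns at -1.23, and the Fth1 and Slc40a1 intervals all include 0.

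Ftl1, the ferritin light chain, was barely counted, with 1 to 10 counts per column and 62 over all 12 columns. It had 3, 4 and 6 counts in back ST and 4, 2 and 1 in back WT. It had 10, 8 and 6 counts in leg ST and 10, 1 and 7 in leg WT. In CPM, leg ST (1.45 to 1.95) lay above back WT (0.316 to 0.941) and back ST (0.493 to 1.15), and leg WT (0.278 to 2.06) overlapped every other set. Of the 12 columns, 3 held fewer than 3 counts. The rat RefSeq table lists 14 Ftl1 pseudogenes and 7 Ftl1-like genes, which does not show the copies present in the annotation used for these mouse identifiers. Reads that match several places equally well are kept out of the gene rows as multimapping reads, so these counts need not reflect the amount of the transcript. In an edgeR fit without the filter, the leg minus back difference of Ftl1 was 1.22 among the WT columns (95% interval -0.11 to 2.56, adjusted p = 0.352) and 0.86 among the ST columns (95% interval -0.26 to 1.98, adjusted p = 0.562). ST minus WT of Ftl1 was 0.70 in back muscle (95% interval -0.71 to 2.12, adjusted p = 0.740) and 0.34 in leg muscle (95% interval -0.72 to 1.40, adjusted p = 0.898), and the leg difference minus the back difference was -0.36 (95% interval -2.10 to 1.37, adjusted p = 1.00). No difference in Ftl1 passed the threshold at this depth.

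Hmox1, the heme-degrading enzyme, had 0 to 17 counts per column and 81 in all. It had 2, 5 and 0 counts in back WT, which is 0.471, 0.888 and 0 CPM, and the 0 of back WT3 allows a level of up to 0.948 CPM. It had 9, 2 and 10 counts in back ST, or 1.48, 0.560 and 1.92 CPM. In leg WT it had 7, 5 and 10 counts, or 1.44, 1.39 and 1.84 CPM. In leg ST it had 8, 6 and 17 counts, or 1.24, 1.46 and 4.12 CPM. Every leg column was above every back WT column, and back ST overlapped all the other sets. In the edgeR fit without the filter, leg minus back among the WT columns was 1.55 (SE 0.635, adjusted p = 0.122), and ST minus WT in back muscle was 1.37 (SE 0.642, adjusted p = 0.272). Neither passed the threshold, and both rest on 7 counts in back WT. ST minus WT in leg muscle was 0.44 (95% interval -0.50 to 1.38, adjusted p = 0.764), and leg minus back among the ST columns was 0.61 (95% interval -0.33 to 1.56, adjusted p = 0.657). The leg difference minus the back difference was -0.93 (95% interval -2.51 to 0.64, adjusted p = 0.963).

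Iron export was represented by Slc40a1, which encodes ferroportin. It had 19 to 79 counts per column. Its level was 10.1, 9.94 and 6.002 CPM in back WT, a mean of 8.69 ± 2.33 CPM (SD, n = 3), and 13.0, 9.79 and 9.996 CPM in back ST, a mean of 10.9 ± 1.79 CPM (SD, n = 3). In leg WT it was 8.88, 5.84 and 10.1 CPM, a mean of 8.28 ± 2.20 CPM (SD, n = 3), and in leg ST it was 8.18, 12.9 and 12.6 CPM, a mean of 11.2 ± 2.66 CPM (SD, n = 3). The 4 sets overlapped.

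The ST minus WT difference of Slc40a1 was 0.31 in back muscle (95% interval -0.22 to 0.85, adjusted p = 0.505) and 0.38 in leg muscle (95% interval -0.15 to 0.92, adjusted p = 0.511). Neither passed the threshold, and the 2 values came from different columns. They differed from each other by 0.07 (95% interval -0.69 to 0.83, adjusted p = 0.977). Back ST1 held the highest Slc40a1 level of back ST. Without that column the back muscle difference was 0.15 (SE 0.270, adjusted p = 0.748 by edgeR). Leg minus back was -0.07 among the WT columns (95% interval -0.63 to 0.48, adjusted p = 0.888). Among the ST columns it was -0.0013 (95% interval -0.50 to 0.49, adjusted p = 0.999). Among the WT columns the interval runs from 0.646-fold to 1.40-fold, and differences in ferroportin transcript inside it remain compatible with these columns.

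The 3 tested genes did not vary together in a common way. Between Fth1 and Tfrc, Pearson's r of the log2 levels was 0.54 and Spearman's rho 0.48 over the 12 columns. Within back muscle r was 0.59 and rho 0.89 (n = 6). Within leg muscle r was -0.76 and rho -0.77 (n = 6), so the sign differed between the muscles. Slc40a1 had r of -0.08 with Fth1 and -0.03 with Tfrc over the 12 columns. These columns share sets and scaling, and the values are a description. The median log2 difference of the 3 genes was -0.21 for ST minus WT in back muscle and -0.07 in leg muscle, beside 0.01 and 0.01 over all tested genes. For leg minus back it was -0.23 among the WT columns and -0.08 among the ST columns, beside 0.00 and -0.01 over all tested genes. In each of these comparisons the median of the 3 genes was the value of Fth1 itself, which was not called. Slc40a1 was above 0 in ST minus WT of both muscles, so these medians do not show a shared shift of the 3 genes.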

How the data were processed

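The deposited tables hold whole-number counts per gene. Per the labels and the submitters' processing notes, a commercial service made and sequenced paired-end libraries from muscle RNA, and STAR and DESeq2 are named without versions. Genome build, annotation and strand setting were not given in the sources used here. In each table, 4 rows of read classes were kept out of library sizes and tests. All 12 columns were matched to a muscle by name, and 0 columns of values were left out.

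Counts were analysed in R 4.3.3 with edgeR 4.0.16 (filterByExpr at a minimum count of 10, TMM, 1 quasi-likelihood fit over the 4 sets). DESeq2 1.42.0, other scaling, no filter, subsets of columns, a stricter threshold and leaving out each column were tried as alternatives. No 2 columns of a set agreed within sampling noise (chi-square per degree of freedom from 2.20 to 73.6 over 12 pairs). The genes and tests were chosen with earlier results of these data known. All 5 genes are named in every comparison whatever their values. Log2 CPM used a prior count of 2. Intervals are at 95%, and the limit for a count of 0 is 3 counts, which covers counting error only.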

Additional observations from a re-analysis of the deposited data

Results flagged for a closer look

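Among 18 sets of 6 columns examined (each of the 5 genes, the unmapped, multimapping and ambiguous shares and the gene count total, within each muscle), 2 held a column far from the others. About 1 in 20 such sets would do so by chance. For Fth1 in back muscle, the lowest column (back ST3, 1005 CPM) was separated from the next by 0.796 of the range of the 6 columns. For Hmox1 in leg muscle, the highest column (leg ST3, 4.12 CPM from 17 counts) was separated from the next by 0.790 of the range. Both sets of 6 mix ST and WT columns.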

How the results depend on the processing

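Tfrc kept its negative leg minus back difference among the WT columns under all 11 alternatives and passed the threshold in 10 of them. Its ST minus WT difference in back muscle stayed negative under all 12 alternatives and passed in 4, which were no filter (-0.88), DESeq2's Wald test (-0.93), the replicate block (-1.02, adjusted p = 0.0458) and without back ST1 (-1.51). Fth1 and Slc40a1 passed under none of the alternatives run.

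Counts of genes called moved more. With the total of gene counts as scale they were 784 in back muscle (671 higher and 113 lower in ST, against 250 and 145 with TMM) and 21 in leg muscle (19 and 2, against 5 and 3), and leg minus back gave 1406 higher and 241 lower among the WT columns (against 778 and 672) and 1039 and 134 among the ST columns (against 486 and 374). The median over all genes then stood at 0.19 to 0.23 in these 4 comparisons. Without a filter, over 20341 genes, the counts were 1173 in back, 503 in leg, 280 for the interaction and 1400 for leg minus back in ST. DESeq2 gave 86 in leg, of the 1016 genes that received an adjusted p there, and 54 of 8111 for the interaction. Tfrc and Slc40a1 received no adjusted p from DESeq2 in leg. These counts do not compare directly with those over 10450 genes. Fitting only the columns compared gave 2 in back, 694 in leg and 224 for leg minus back in ST. At a threshold of 0.01 the counts were 23 in back, 592 for leg minus back in WT and 316 in ST. The causes were not tested.

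Leaving out 1 column gave 30 to 2336 genes in back muscle, where the highest was without back ST1 and the other 5 columns gave 30 to 87. It gave 2 to 11 in leg muscle (3 without leg ST2, 2 without leg ST3, 4 without leg WT1, 3 without leg WT3) and 0 to 662 for the interaction, which was 0 except without back ST1. It gave 697 to 1077 for leg minus back in WT (829, 747 and 910 without back WT1, WT2 and WT3, and 697 without leg WT1) and 303 to 1328 in ST (1328 without back ST2, 463 without leg ST2 and 303 without leg ST3).

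Signs turned only for values that passed no test. With the total of gene counts, ST minus WT in leg was 0.13 for Fth1 and 0.043 for Tfrc, and leg minus back was 0.0036 for Fth1 and 0.16 for Slc40a1 in WT and 0.15 and 0.26 in ST. Slc40a1 in leg minus back of ST was 0.0099 with DESeq2 and 0.0066 from only those columns. With 1 column left out, Tfrc ranged from -0.26 to 0.13 for ST minus WT in leg and from -0.72 to 0.15 for leg minus back in ST. Fth1 ranged from -0.0127 to 0.2367 for the interaction and from -0.25 to 0.0078 for leg minus back in ST. Slc40a1 ranged from -0.11 to 0.28 for the interaction, from -0.2524 to 0.0946 for leg minus back in WT and from -0.13 to 0.20 in ST.

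The printed numbers did not pair the columns. Deviations from the set means of same-numbered ST and WT columns correlated at -0.10 to 0.05, and 3 of 12 columns correlated best with their own number. The replicate block gave 442 genes in back, 10 in leg and 0 for the interaction.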
